A study of Mus musculus with 12 samples.

Results

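The antigen presentation genes described here are 10 genes taken by gene name from the 55903 genes of a mouse liver RNA-seq table. They are the class I chains H2-K1, H2-D1, H2-Q10 and B2m, the peptide transporter genes Tap1 and Tap2, and the class II genes H2-Aa, H2-Ab1, H2-Eb1 and Cd74. All 10 were found, and all 10 passed the filter on low values, a mean of at least 1 TPM over the 12 libraries, as did 10883 genes in all. Each of the 3 groups had 4 liver libraries. The KSL0608-Se-treated group received a compound known only by that code, and its description also names doxo. The second group is titled an aged control and labelled aged, while its description names doxo. It is called aged/doxo here, because the labels do not settle whether age, doxo or both set it apart. The third group is a young control with no treatment named. The design text presents doxo, presumably the DNA-damaging drug doxorubicin, as common to the KSL0608-Se-treated and aged/doxo groups. The sources used here do not give strain, sex, age in weeks, dose or the number of animals, and do not say how animals map to libraries. P-values therefore measure the spread between these libraries, which may be technical.

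Class I molecules pair a heavy chain with B2m, beta-2 microglobulin, and show peptides made inside the cell to CD8 T cells. Tap1 and Tap2 form the pump that carries those peptides into the endoplasmic reticulum. Nearly every nucleated cell makes class I, and H2-Q10 is a liver-made class I heavy chain that is secreted. Class II molecules pair an alpha and a beta chain (H2-Aa with H2-Ab1 in I-A; H2-Eb1 is the beta chain of I-E) and show peptides from outside the cell to CD4 T cells. Class II is made mostly by dendritic cells, B cells and macrophages, which in liver include Kupffer cells, and Cd74, the invariant chain, guards its peptide groove during assembly.

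Both classes are known to share a promoter module, in which RFX, CREB-family and NF-Y proteins bind X and Y boxes side by side and recruit the coactivators NLRC5 for class I and CIITA for class II. RefSeq promoter windows, taken on GRCm38.p6 as the 250 bases before the annotated start, were matched by symbol for 7 of the 10 genes. H2-Ab1, Tap2 and Cd74 are named only. The windows of 5 genes are shown, because they carry the pairs of genes that moved together or apart in the data below. Capitals mark matches on either strand to the Y box core CCAAT, the X2 box core TGACG, the interferon-stimulated response element, the gamma-activated site TTCNNNGAA, the NF-kB consensus, the TATA box TATAAA and GGGATTC, an NF-kB core of the class I enhancer that was chosen after the promoters were seen. The H2-K1 window lies at chr17:34000348-34000597 on the minus strand. The B2m window lies at chr2:122147437-122147686, plus strand. For H2-Q10 the window is chr17:35469839-35470088, plus strand. For H2-Aa it is chr17:34287824-34288073, minus strand, and for H2-Eb1 it is chr17:34305617-34305866, plus strand.
H2-K1: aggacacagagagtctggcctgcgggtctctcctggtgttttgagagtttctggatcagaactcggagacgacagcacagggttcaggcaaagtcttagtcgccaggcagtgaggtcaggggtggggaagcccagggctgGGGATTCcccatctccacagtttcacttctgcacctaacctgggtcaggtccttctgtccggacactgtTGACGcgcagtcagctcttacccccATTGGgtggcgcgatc
B2m: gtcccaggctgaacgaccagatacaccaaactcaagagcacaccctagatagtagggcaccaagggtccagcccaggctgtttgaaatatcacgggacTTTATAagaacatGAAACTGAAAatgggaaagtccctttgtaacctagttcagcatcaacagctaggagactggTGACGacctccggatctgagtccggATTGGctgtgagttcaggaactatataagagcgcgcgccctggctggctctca
H2-Q10: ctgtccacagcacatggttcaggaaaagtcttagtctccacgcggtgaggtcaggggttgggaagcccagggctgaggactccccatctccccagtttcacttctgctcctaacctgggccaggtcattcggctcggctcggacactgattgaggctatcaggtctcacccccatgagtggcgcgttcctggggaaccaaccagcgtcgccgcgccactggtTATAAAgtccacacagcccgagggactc
H2-Aa: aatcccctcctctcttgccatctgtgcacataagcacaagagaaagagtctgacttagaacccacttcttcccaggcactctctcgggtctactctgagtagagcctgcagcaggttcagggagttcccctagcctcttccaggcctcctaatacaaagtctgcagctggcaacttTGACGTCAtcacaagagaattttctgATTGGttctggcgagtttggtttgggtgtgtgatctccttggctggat
H2-Eb1: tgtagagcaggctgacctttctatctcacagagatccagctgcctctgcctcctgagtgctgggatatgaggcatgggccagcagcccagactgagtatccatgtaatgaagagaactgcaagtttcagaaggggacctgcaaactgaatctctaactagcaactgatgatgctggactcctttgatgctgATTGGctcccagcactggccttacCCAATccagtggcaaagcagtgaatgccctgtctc

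Y box cores were found in 6 of the 7 windows, against 33.8% of all 32851 windows, and X2 cores in 5 of 7, against 17.8%. In H2-K1, H2-D1 and B2m an X2 core was followed by an inverted Y box (ATTGG) whose first base lay 25 bases downstream, and in H2-Aa 26 bases downstream. This pair, at either spacing, was chosen after the promoters were seen and stood in 50 of the 32851 windows (0.152%). Of these 2 cores H2-Eb1 held only that of the Y box. The X2 box was searched only as the exact letters TGACG, so other forms of the X box may be present. The H2-Q10 window held neither core, and its only match was a TATA box 28 bases before the start. The letters TATAAA were found in 3 of 7 windows (H2-D1, H2-Q10 and, inverted, B2m), against 12.4% of all. The interferon-stimulated response element was searched only as a fixed pattern of letters. That pattern was found only in B2m, against 2.98% of all windows. Other forms of the element were not searched, so windows without a match, those of the class I heavy chains included, may still hold it. No window of the 7 held a gamma-activated site (7.02% of all) or the NF-kB consensus (0.323% of all), while GGGATTC stood in H2-K1 and H2-D1 and in 2.54% of all windows. A match is a run of letters and not a measured binding site.

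The values are TPM, a transcript abundance scaled for gene length and for the library total, so that levels can be set side by side between genes. Sequencing depth is unknown for TPM, and no counting interval can be given. Between 9568 and 11023 genes reached 1 TPM per library. Libraries that stood apart were aged/doxo library 2 and young control library 1. They had the fewest genes at 1 TPM or more (9741 and 9568) and the steepest fall of TPM with gene length, with slopes of log2(TPM + 1) on log2 length of -0.473 and -0.472. The slope of aged/doxo library 4 was -0.449, and the other 9 lay between -0.387 and -0.229. Mitochondrial genes took 27.6% of TPM in aged/doxo library 2 and 8.10% to 12.4% elsewhere. Hepatocyte markers were high in every library, with Alb, the albumin gene, at 16214 to 42495 TPM, as the liver label has it.

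The 10 genes spanned more than 2 orders of magnitude in level. Averaged over 12 libraries, B2m stood at 2798 TPM, H2-K1 at 1581 TPM, H2-Q10 at 1536 TPM and H2-D1 at 332.0 TPM. They ranked 52, 82, 83 and 323 among all genes. The class II genes were lower. Cd74 averaged 78.4 TPM (rank 1037), H2-Ab1 33.0 TPM, H2-Aa 31.2 TPM and H2-Eb1 29.7 TPM, ranks 1909 to 2066. Tap1 at 8.31 TPM and Tap2 at 8.04 TPM came last. Within libraries this order was strict at most steps: B2m exceeded H2-K1, H2-Q10 exceeded H2-D1, H2-D1 exceeded Cd74, Cd74 exceeded H2-Ab1 and H2-Eb1 exceeded Tap1 in 12 of 12 libraries. The order of H2-K1 and H2-Q10 was not settled, since H2-K1 was higher in 3 of 12 libraries. H2-Ab1 exceeded H2-Aa in 10 of 12, H2-Aa exceeded H2-Eb1 in 9 of 12, and Tap1 exceeded Tap2 in 5 of 12.

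**Figure D1:**
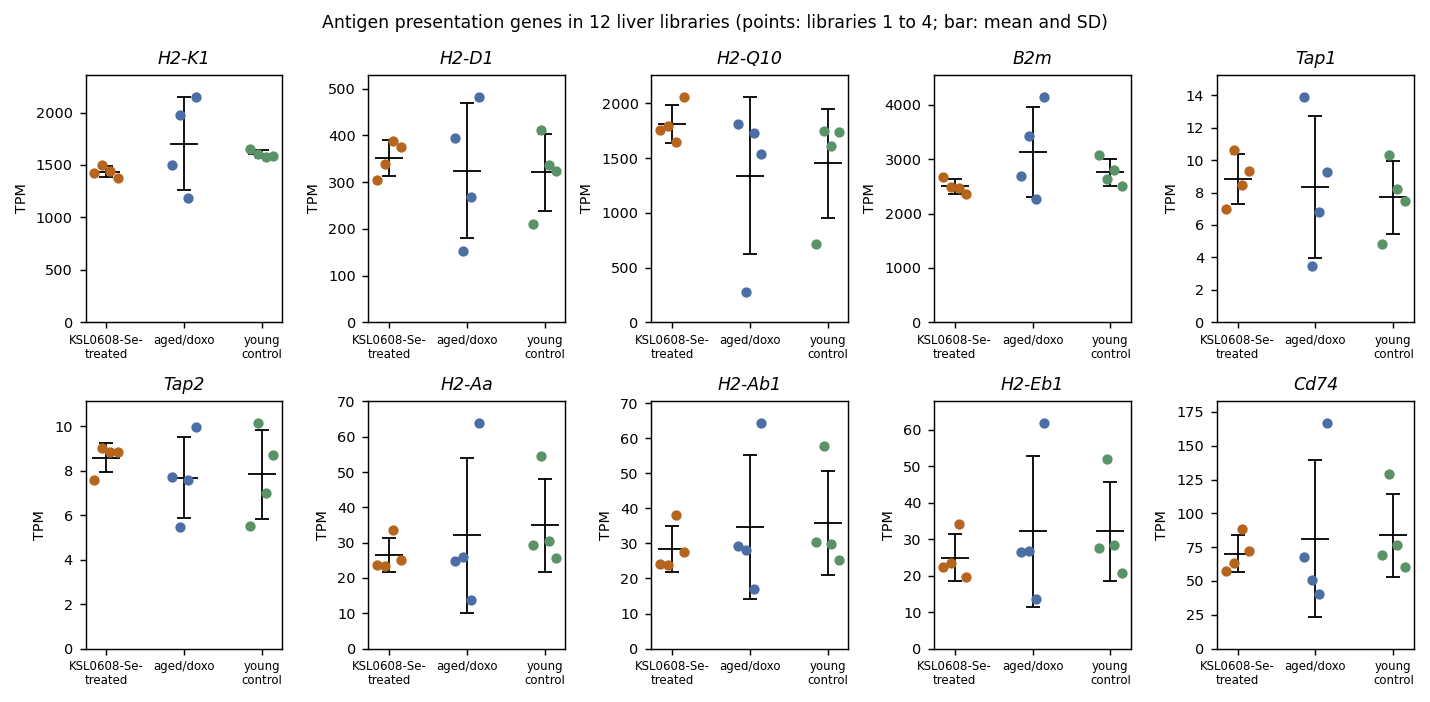
TPM of the 10 antigen presentation genes, 1 panel a gene, with KSL0608-Se-treated, aged/doxo and young control libraries from left to right. Each point is a library, the bar is the group mean and the whiskers are 1 SD (n = 4); every panel starts at 0, and in each the groups overlap except for H2-K1 between KSL0608-Se-treated and young control.

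H2-K1 and B2m, a classical class I heavy chain and its partner, moved together from library to library. H2-K1 was at 1428, 1502, 1446 and 1372 TPM in KSL0608-Se-treated libraries, at 1497, 1981, 1189 and 2147 TPM in aged/doxo libraries, and at 1652, 1606, 1576 and 1581 TPM in young control libraries. B2m was at 2681, 2489, 2473 and 2354 TPM in KSL0608-Se-treated libraries, at 2692, 3435, 2265 and 4144 TPM in aged/doxo libraries, and at 3083, 2643, 2809 and 2513 TPM in young control libraries. Both genes were highest in aged/doxo library 4, next in aged/doxo library 2, and lowest in aged/doxo library 3. Over the 12 libraries, on the log2(TPM + 1) scale, Pearson's r was 0.93 (permutation p = 4e-05, adjusted p = 3e-04 over 45 pairs of the 10 genes) and Spearman's rho 0.82 (permutation p = 0.0019, adjusted p = 0.0107). Without the libraries farthest from the median of H2-K1, aged/doxo 4 and 3, r was 0.88. It was 0.92 without aged/doxo library 2 and young control library 1, and 0.93 with the values centred on their group means. The promoter windows of H2-K1, B2m and H2-D1 share the X2 core and inverted Y box at the same spacing. Over the 12 libraries H2-D1 had an r of -0.10 with H2-K1 and -0.12 with B2m. Without aged/doxo library 2 and young control library 1 those were 0.78 and 0.68. Any part of the promoter letters in these values was not tested.

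H2-Q10 and H2-D1 were lowest in the libraries that stood apart. H2-Q10 was at 1754, 1795, 1646 and 2058 TPM in KSL0608-Se-treated libraries, at 1815, 274.4, 1731 and 1540 TPM in aged/doxo libraries, and at 714.8, 1751, 1607 and 1742 TPM in young control libraries. Outside aged/doxo library 2 and young control library 1, H2-Q10 ranged only from 1540 to 2058 TPM. H2-D1, the other classical heavy chain measured, was at 304.4, 338.0, 388.6 and 374.9 TPM in KSL0608-Se-treated libraries, at 394.7, 152.6, 267.0 and 481.9 TPM in aged/doxo libraries, and at 210.2, 411.7, 336.6 and 323.9 TPM in young control libraries. The ratio of H2-K1 to H2-D1 was 13.0 in aged/doxo library 2 and 7.86 in young control library 1, and lay between 3.66 and 4.88 in the other 10. Pearson's r of H2-D1 and H2-Q10 was 0.85 over 12 libraries (permutation p = 0.00532, adjusted p = 0.0200), and 0.29 after median-of-ratios scaling. Spearman's rho was 0.39 (permutation p = 0.21, adjusted p = 0.315). Without aged/doxo library 2 and young control library 1, Pearson's r was -0.21, so the relation rests on them.

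In the same libraries a neighbouring class I gene, H2-Q1, was high. H2-Q1 was at 2.22, 2.11, 4.15 and 2.53 TPM in KSL0608-Se-treated libraries, at 1.81, 837.2, 2.52 and 42.0 TPM in aged/doxo libraries, and at 576.9, 1.60, 2.13 and 3.05 TPM in young control libraries. The gene is not among the 10, and is singled out after its values were seen. It took 75.3% of the H2-Q1 and H2-Q10 sum in aged/doxo library 2, 44.7% in young control library 1, 2.65% in aged/doxo library 4 and at most 0.252% in the other 9. The summed TPM of the pair was 1112 in aged/doxo library 2 and 1292 in young control library 1, against 1582 to 2060 in the other 10. The 3 libraries with the most H2-Q1 were also the 3 with the steepest length slopes. Of 10883 genes, 7 were over 10 times higher in both of the libraries that stood apart than in any other, and H2-Q1 was the only protein-coding gene of the 7. The other 6 are ribosomal and small RNA genes by their GENCODE M21 class, listed at 0 in the other 10 libraries. The lower level of H2-Q10 was less unusual: 303 of 10883 genes were more than 2 times lower in both libraries than in any other.

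H2-Q10 and H2-Q1 lie in the same orientation on chromosome 17 of GRCm38 (GENCODE M21 positions 35470089 to 35474563 and 35320405 to 35325099). Their transcripts aligned at 86.8% identity over 1132 bases with a longest identical run of 134 bases, and 7.94% of the 50-base windows of H2-Q10 occur in H2-Q1. For H2-Q10 and H2-D1 the identity was 90.3% over 1358 bases, and for H2-K1 and H2-D1 it was 91.1% over 1470 bases. The sources used here do not say how reads that fit several of these genes were shared out. The split between class I heavy chains is therefore uncertain, and its part in the H2-Q10 and H2-Q1 values was not tested. The class II chains are less alike: H2-Ab1 and H2-Eb1 aligned at 81.1% over 512 bases, with no identical 50-base window.

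**Figure D2:**
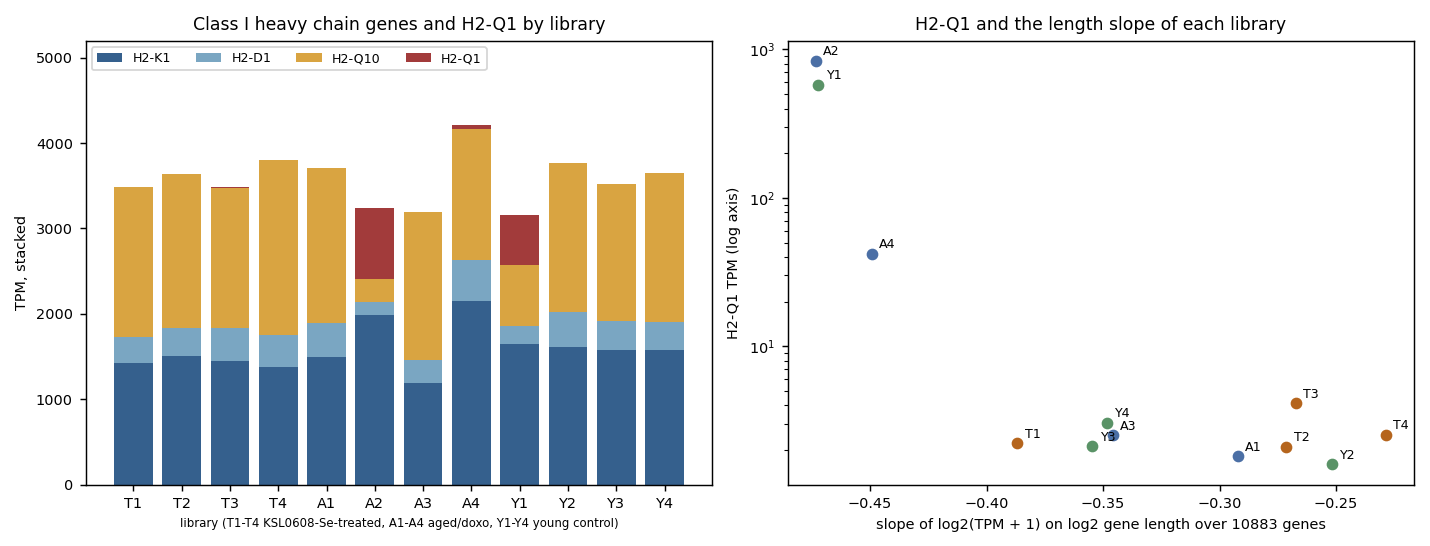
Left, stacked TPM of H2-K1, H2-D1, H2-Q10 and H2-Q1 in each library (T KSL0608-Se-treated, A aged/doxo, Y young control). Right, H2-Q1 TPM on a log axis against each library's slope of log2(TPM + 1) on log2 gene length; H2-Q1 reached 837.2 TPM in A2 and 576.9 TPM in Y1, which have the steepest slopes, with A4 next at 42.0 TPM.

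The summed TPM of the class I heavy chains H2-K1, H2-D1 and H2-Q10 averaged 3601 ± 153 in KSL0608-Se-treated, 3368 ± 755 in aged/doxo and 3378 ± 544 in young control libraries (SD, n = 4 each). Its lowest values, 2408 and 2577, were in aged/doxo library 2 and young control library 1. With H2-Q1 added, the sums were 3604 ± 153, 3589 ± 476 and 3524 ± 267 in KSL0608-Se-treated, aged/doxo and young control libraries (SD, n = 4 each). After median-of-ratios scaling, the sum without H2-Q1 was 4216 in aged/doxo library 2 and 3860 in young control library 1. Its median over libraries was then 3242. The KSL0608-Se-treated, aged/doxo and young control means were then 3081 ± 230, 3715 ± 691 and 3487 ± 303 (SD, n = 4 each). The order of the groups and of these libraries therefore depended on the scaling. The B2m to heavy chain ratio was 1.43 in aged/doxo library 2, 1.20 in young control library 1 and 0.994 in aged/doxo library 4, and lay between 0.619 and 0.798 in the other 9.

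The transporter genes were low in every library. Tap1 was at 6.96, 10.6, 8.46 and 9.34 TPM in KSL0608-Se-treated libraries, at 13.9, 3.49, 6.82 and 9.29 TPM in aged/doxo libraries, and at 4.83, 10.3, 8.22 and 7.45 TPM in young control libraries. Tap2 was at 7.61, 9.01, 8.87 and 8.85 TPM in KSL0608-Se-treated libraries, at 7.73, 5.48, 7.61 and 9.98 TPM in aged/doxo libraries, and at 5.53, 10.1, 7.02 and 8.70 TPM in young control libraries. Both were lowest in aged/doxo library 2 and next to lowest in young control library 1, as H2-D1 and H2-Q10 were. Pearson's r of Tap1 and Tap2 was 0.76 (permutation p = 0.00445, adjusted p = 0.0182) and rho 0.75 (permutation p = 0.00619, adjusted p = 0.0253), but r was 0.28 without those libraries and -0.04 after median-of-ratios scaling. With H2-D1, Tap1 and Tap2 each had an r of 0.89 (permutation p = 0.00025 and 0.00026, adjusted p = 0.0013 for both) and a rho of 0.85 (permutation p = 0.00081 and 0.00086, adjusted p = 0.00645 for both), and without those libraries r was 0.61 and 0.68. After median-of-ratios scaling it was 0.64 with Tap1 and 0.48 with Tap2. The recorded lengths of Tap1 and Tap2, 2953 and 3442 bases, are the longest of the 10 genes.

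The 4 class II genes moved together from library to library. H2-Aa was at 23.8, 23.4, 33.7 and 24.98 TPM in KSL0608-Se-treated libraries, at 24.7, 25.9, 13.7 and 63.8 TPM in aged/doxo libraries, and at 29.4, 54.5, 30.5 and 25.5 TPM in young control libraries. H2-Ab1 was at 24.1, 23.97, 38.0 and 27.5 TPM in KSL0608-Se-treated libraries, at 29.3, 28.2, 17.0 and 64.3 TPM in aged/doxo libraries, and at 30.4, 57.9, 29.7 and 25.4 TPM in young control libraries. These partners of the I-A molecule kept a ratio of H2-Aa to H2-Ab1 between 0.809 and 1.03 in all 12 libraries. H2-Eb1 was at 22.2, 23.3, 34.2 and 19.7 TPM in KSL0608-Se-treated libraries, at 26.4, 26.8, 13.5 and 61.7 TPM in aged/doxo libraries, and at 27.7, 51.9, 28.4 and 20.6 TPM in young control libraries. Cd74 was at 57.6, 63.1, 88.4 and 71.8 TPM in KSL0608-Se-treated libraries, at 67.5, 50.6, 39.99 and 166.5 TPM in aged/doxo libraries, and at 69.4, 128.9, 76.7 and 60.6 TPM in young control libraries. Each of the 4 genes was highest in aged/doxo library 4, next in young control library 2, and lowest in aged/doxo library 3, so the aged/doxo group held both extremes. Cd74 per class II chain was lowest in aged/doxo library 2, at 0.625 of the summed chains, against 0.785 to 0.995 in the other 11.

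Pearson's r between class II genes ran from 0.93 to 0.98 in the 6 pairs, with adjusted permutation p between 0.00015 and 0.000386, and Spearman's rho from 0.78 to 0.94. With the 2 libraries farthest from the median left out, which in every class II pair were aged/doxo 4 and young control 2, r ran from 0.77 to 0.95. Without aged/doxo library 2 and young control library 1 it ran from 0.97 to 0.99, and with values centred on their group means from 0.94 to 0.99.

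Markers of several cell types peaked in the same libraries as class II. The summed TPM of 9 Kupffer cell markers (Clec4f, Vsig4, Timd4, Adgre1, Cd5l, Marco, C1qa, C1qb and C1qc), none at 0 in any library, was 170 to 250 in KSL0608-Se-treated, 66.0 to 439 in aged/doxo and 167 to 295 in young control libraries. It was highest in aged/doxo library 4 and next in young control library 2, as the class II genes were. It was lowest in aged/doxo library 2 at 66.0, where the class II chains summed to 80.9 TPM, near their median of 80.6 TPM. After median-of-ratios scaling the class II chains summed to 142 in that library, against a median of 77.3. They then summed to 140 in young control library 2 and 200 in aged/doxo library 4. The marker sums were not rescaled in this way. Of 9 dendritic cell markers, 0 averaged 1 TPM, Siglech was at 0 in 4 libraries, and the sum was 2.25 to 3.32 TPM in KSL0608-Se-treated, 1.08 to 6.12 TPM in aged/doxo libraries and 1.97 to 3.76 TPM in young control libraries, with its extremes in aged/doxo libraries 3 and 4. Of 6 B cell markers only Ighm, the IgM heavy chain, averaged 1 TPM; Ms4a1 was at 0 in 1 library and Pax5 in 2. The B cell sum was 10.7 to 16.7 TPM in KSL0608-Se-treated, 8.64 to 10.6 TPM in aged/doxo libraries and 5.85 to 20.1 TPM in young control libraries, and it was 9.33 TPM in aged/doxo library 4, so it did not share the class II peak. The general leukocyte genes Ptprc, Coro1a and Laptm5, none at 0, summed to 6.24 to 13.5 TPM in KSL0608-Se-treated, 5.03 to 15.2 TPM in aged/doxo libraries and 5.01 to 13.5 TPM in young control libraries, and were highest in aged/doxo library 4. The summed T and NK cell markers (2 of 8 averaged 1 TPM, and Cd3e, Cd8a, Ncr1 and Klrb1c were at 0 in 1 to 5 libraries) were 2.08 to 4.96 TPM in KSL0608-Se-treated, 2.41 to 7.69 TPM in aged/doxo libraries and 2.58 to 6.36 TPM in young control libraries. Monocyte and neutrophil markers (2 of 5 averaged 1 TPM, none at 0) summed to 4.69 to 4.95 TPM in KSL0608-Se-treated, 2.67 to 8.73 TPM in aged/doxo libraries and 4.52 to 7.24 TPM in young control libraries. Both sums were highest in aged/doxo library 4 and next in young control library 2. The stellate cell and hepatocyte sums were also highest in aged/doxo library 4, at 87.8 and 66045 TPM. Their medians over the 12 libraries were 52.9 and 57315 TPM. Within the hepatocyte sum, Apoa1 and Ttr were highest in that library, and Alb and Cps1 were not. The sinusoidal endothelium sum was 49.5 TPM in aged/doxo library 4 and highest in KSL0608-Se-treated library 4, at 72.2 TPM. The cholangiocyte sum was 7.93 TPM in aged/doxo library 4 and highest in young control library 4, at 16.65 TPM. The part of cell content in the class II values was not tested. In whole liver, fewer cells of a type and less RNA per cell cannot be told apart.

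**Figure D3:**
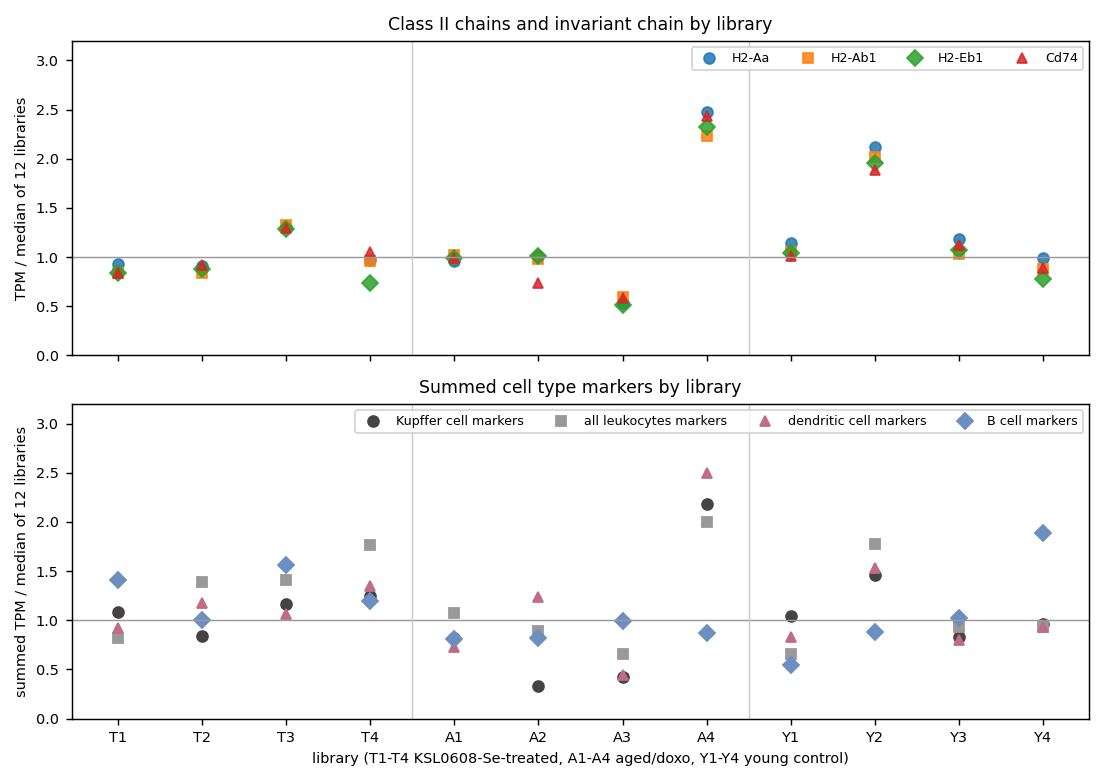
Class II genes (top) and summed cell type markers (bottom) in each library, as TPM divided by the median of the 12 libraries (T KSL0608-Se-treated, A aged/doxo, Y young control). The 4 class II genes lie close together in most libraries, with high points in A4 and Y2 and a low point in A3. Of the 4 marker sums plotted, those of Kupffer cells, dendritic cells and leukocytes are also highest in A4. So are the T and NK cell, monocyte and neutrophil, stellate cell and hepatocyte sums, which are not plotted. The sinusoidal endothelium and cholangiocyte sums, also not plotted, are highest in T4 and Y4.

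How closely class I followed class II depended on the gene and on the libraries that stood apart. Over all 12 libraries, 2 of the 16 pairs of a class I chain and a class II gene passed an adjusted permutation p of 0.05 for Pearson's r, both with H2-K1. These were H2-K1 with H2-Eb1, with an r of 0.72 (permutation p = 0.0105, adjusted p = 0.0339) and a rho of 0.68 (permutation p = 0.0187, adjusted p = 0.0647), and H2-K1 with H2-Aa, with an r of 0.70 (permutation p = 0.0142, adjusted p = 0.0425) and a rho of 0.67 (permutation p = 0.0203, adjusted p = 0.0651). Without aged/doxo libraries 4 and 3, the farthest from the median of H2-K1, r was 0.24 and 0.13, so both rest on those libraries. H2-D1 with Cd74 passed by rank alone, with an r of 0.67 (permutation p = 0.0209, adjusted p = 0.0576) and a rho of 0.78 (permutation p = 0.00385, adjusted p = 0.0187). Without aged/doxo library 2 and young control library 1, r with the 4 class II genes was higher for 3 of the class I chains, at 0.81 to 0.86 for H2-K1, 0.87 to 0.92 for H2-D1 and 0.71 to 0.76 for B2m. After median-of-ratios scaling it was 0.64 to 0.76 for H2-K1, 0.66 to 0.79 for H2-D1 and 0.64 to 0.75 for B2m. H2-Q10 with class II had r from -0.05 to 0.24 and adjusted p from 0.511 to 0.957, and r from -0.53 to -0.42 without aged/doxo library 2 and young control library 1. H2-Q10 and H2-K1 had an r of -0.55 (permutation p = 0.0831, adjusted p = 0.163) and a rho of -0.64 (permutation p = 0.0276, adjusted p = 0.0827), which did not pass. Of all 45 pairs 15 passed, against 28 after median-of-ratios scaling and 23 without aged/doxo library 2 and young control library 1. The summed class I heavy chains were 21.97 times the summed class II chains in aged/doxo library 4, 22.9 times in young control library 2 and 72.1 times in aged/doxo library 3.

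**Figure D4:**
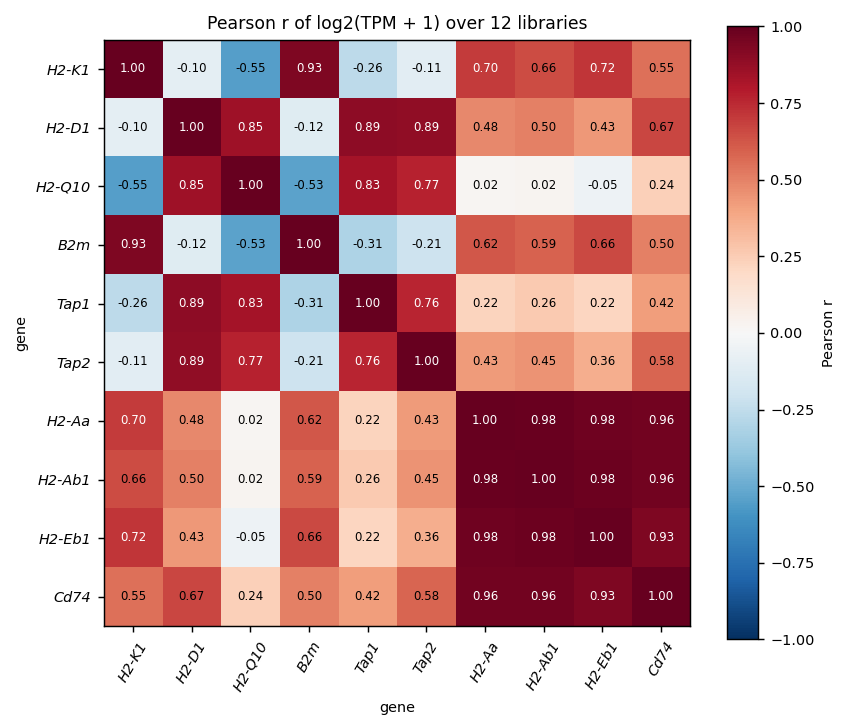
Pearson's r of log2(TPM + 1) over 12 libraries for each pair of the 10 genes, with red for positive and blue for negative values. The class II genes form a block between 0.93 and 0.98, and H2-K1 pairs with B2m at 0.93. H2-D1, H2-Q10, Tap1 and Tap2 form a block between 0.76 and 0.89. Without A2 and Y1, H2-D1 has r of 0.61 with Tap1 and 0.68 with Tap2. The other pairs of that block then lie between -0.21 and 0.28. After median-of-ratios scaling of all libraries, the pairs of that block lie between -0.46 and 0.64. Tap2 then has r of 0.76 with H2-K1, 0.74 with B2m and 0.78 to 0.82 with the class II genes.

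The group comparisons ask whether KSL0608-Se treatment, or the aged/doxo state, moved these genes. For KSL0608-Se-treated against aged/doxo liver, 0 of the 10 genes passed limma's adjusted p of 0.05, and 0 had an unadjusted p under 0.05. H2-Q10 had the largest fold change, at 1813 ± 175 TPM in KSL0608-Se-treated and 1340 ± 720 TPM in aged/doxo libraries (SD, n = 4 each). Its log2 fold change was 0.75 (SE 0.52, 95% interval -0.37 to 1.87, limma adjusted p = 0.428), 0.10 without aged/doxo library 2, and 0.24 with the H2-Q1 and H2-Q10 values summed, an alternative chosen after the data were seen. B2m was at 2499 ± 135 TPM in KSL0608-Se-treated and 3134 ± 829 TPM in aged/doxo libraries (SD, n = 4 each), a log2 fold change of -0.29 (SE 0.18, limma adjusted p = 0.427). The class II genes had log2 fold changes from -0.19 to 0.00, with 95% intervals of -0.89 to 0.76 for H2-Aa, -0.93 to 0.64 for H2-Ab1, -1.04 to 0.67 for H2-Eb1 and -0.83 to 0.84 for Cd74.

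That count stood against a background in which 0.00919% of the 10883 genes passed the adjusted threshold (1 gene) and in which 4.77% passed 0.05 before adjustment. The median log2 fold change of all genes was 0.30 in KSL0608-Se-treated against aged/doxo libraries, and 81% of genes were above 0. Groups overlapped for all 10 genes here, while 3.13% of tested genes had groups that did not. The median was 0.01 for the 4 class I chains and -0.11 for the 4 class II genes. Of the 10 genes, 5 were above 0. Median-of-ratios scaling moved them all down, to -0.00 for all genes, -0.36 for the class I chains and -0.47 for the class II genes, and both sets stayed below the median of all genes. Without aged/doxo library 4 the class II median was 0.26.

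Between aged/doxo and young control livers none of the 10 genes passed limma's adjusted p of 0.05, which does not show that their levels were equal. H2-K1 was at 1704 ± 440 TPM in aged/doxo libraries and 1604 ± 34.8 TPM in young control libraries (SD, n = 4 each), a log2 fold change of 0.05 (SE 0.18, limma adjusted p = 1). H2-Aa was at 32.0 ± 21.9 TPM in aged/doxo libraries and 35.0 ± 13.2 TPM in young control libraries (SD, n = 4 each), a log2 fold change of -0.27 (SE 0.38, 95% interval -1.10 to 0.55, limma adjusted p = 1). H2-Q10 had the largest, -0.35 (SE 0.52, limma adjusted p = 1), which was 0.31 without aged/doxo library 2 and -0.66 without young control library 1. The count was 0 of 10 by adjusted and by unadjusted p, and the background was 0.00919% (1 gene) and 1.98%. Groups overlapped for all 10 genes, and did not for 1% of tested genes. The median log2 fold change was -0.01 for the class I chains and -0.17 for the class II genes, beside -0.08 for all genes. Of the 10 genes 3 were above 0, as were 35.2% of all genes. Without aged/doxo library 3 the class II median was 0.09.

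For KSL0608-Se-treated against young control liver, H2-K1 was the only one of the 10 genes whose groups did not overlap. It was at 1437 ± 53.5 TPM in KSL0608-Se-treated and 1604 ± 34.8 TPM in young control libraries (SD, n = 4 each), and every KSL0608-Se-treated library was below every young control library. Its two-sided exact permutation p was 0.0286, the smallest that 70 divisions of 8 libraries allow, for a log2 fold change of -0.16 (SE 0.18). It did not pass limma's test across all genes (adjusted p = 0.734), nor with KSL0608-Se-treated and young control libraries fitted alone (adjusted p = 0.543), and its lowest adjusted p over the 24 alternatives was 0.512. In this comparison 4.02% of all tested genes had groups that did not overlap, and 0.358% did so with KSL0608-Se-treated lower; 10 genes are too few to set 1 such gene apart from that background. The limma count was 0 of 10, by adjusted and by unadjusted p, and the background was 0.0276% (3 genes) and 3.4%. Class II log2 fold changes ran from -0.34 for H2-Aa to -0.21 for Cd74, with a median of -0.29 beside 0.23 for all genes and 0.01 for the class I chains. Without young control library 2 the class II median was -0.04. Of the 10 genes 4 were above 0, as were 84% of all genes. H2-Aa averaged 26.5 ± 4.86 TPM in KSL0608-Se-treated and 35.0 ± 13.2 TPM in young control libraries (SD, n = 4 each; 95% interval of the log2 fold change -1.17 to 0.48, limma adjusted p = 0.734). H2-Q10 was 0.40 (SE 0.52, limma adjusted p = 0.748) and 0.09 without young control library 1. The comparisons share libraries and are not independent of each other.

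**Figure D5:**
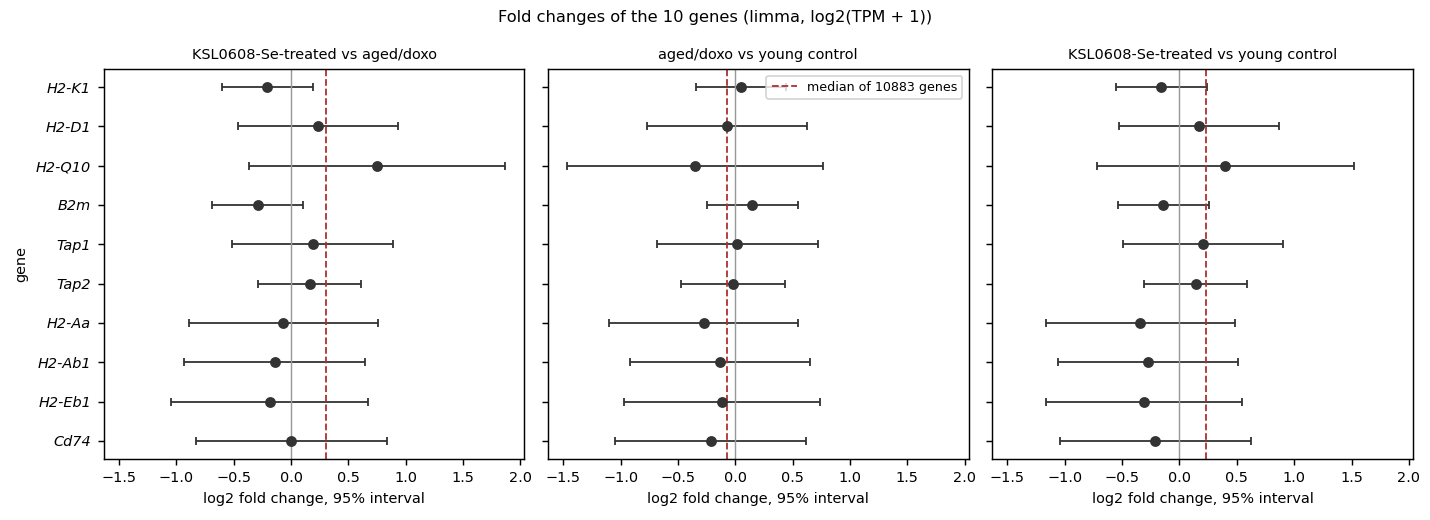
Log2 fold changes (points) with 95% limma intervals (lines) of the 10 genes in KSL0608-Se-treated against aged/doxo, aged/doxo against young control and KSL0608-Se-treated against young control libraries; the dashed line is the median of 10883 genes. Every interval covers 0, and the widest are those of H2-Q10.

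The share of variance lying between groups was small for most of the 10 genes. It was 24.9% for B2m, 16.8% for H2-K1, 14.95% for H2-Q10 and 3.55% to 8.63% for the other 7, beside a median of 19.4% over all tested genes. The SD of TPM was smallest in KSL0608-Se-treated libraries for 9 of the 10 genes and largest in aged/doxo libraries for 9, as it was for 63.2% and 58.4% of the 10883 genes, so this ordering is common in the table.

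The rest of the pathway gave no called gene either: in the lists of pathway genes, 0 members passed limma's adjusted p of 0.05 in any comparison. Of 15 other class I and class I-like genes, 13 were tested. H2-Ke6, a hydroxysteroid dehydrogenase gene with an H2 symbol, was taken off this list after its values were seen. In KSL0608-Se-treated against aged/doxo libraries 11 of 13 were above 0, as were 81% of all genes, and their median log2 fold change was 0.20 beside 0.30 for all genes. Cd1d1, which presents lipids to NKT cells, was at 70.05, 91.6, 105 and 94.2 TPM in KSL0608-Se-treated libraries, against 81.3, 32.7, 66.0 and 54.0 TPM in those of aged/doxo, a log2 fold change of 0.68 (exact permutation p = 0.0571, limma adjusted p = 0.427). Fcgrt, the neonatal Fc receptor that recycles albumin and IgG, was at 87.2 to 98.6 TPM in KSL0608-Se-treated and 36.3 to 86.7 TPM in aged/doxo libraries. Hfe, the iron regulator, was at 19.3 to 22.5 TPM in KSL0608-Se-treated and 4.15 to 19.0 TPM in aged/doxo libraries. Fcgrt and Hfe were the 2 of 13 whose groups did not overlap in that comparison, against 3.13% of all genes, and the lowest aged/doxo value of both was that of library 2. In aged/doxo against young control libraries H2-T10 had a log2 fold change of 0.57 (exact permutation p = 0.171, limma adjusted p = 1), from 0.73, 2.99, 0.81 and 2.26 TPM in aged/doxo libraries and 0.52 to 0.87 TPM in young control libraries. In KSL0608-Se-treated against young control libraries 11 of 13 were above 0, as were 84% of all genes, with a median of 0.15 and 0 at an unadjusted p under 0.05.

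The 7 genes of the peptide-loading complex and peptide trimming were all above 0 in KSL0608-Se-treated against aged/doxo libraries, with a median log2 fold change of 0.59, beside 81% of all genes above 0 and a median of 0.30, and 0 had an unadjusted p under 0.05. In aged/doxo against young control libraries they were all below 0 (median -0.23), beside 35.2% of all genes above 0 and a median of -0.08. In KSL0608-Se-treated against young control libraries they were all above 0 (median 0.36), beside 84% and 0.23 for all genes. Their low values came from the libraries that stood apart. Canx, the chaperone calnexin, was at 75.2, 101, 129 and 127 TPM in KSL0608-Se-treated libraries, at 123, 10.7, 89.7 and 47.1 TPM in aged/doxo libraries, and at 21.8, 114, 69.1 and 86.5 TPM in young control libraries. Erap1, which trims peptides in the endoplasmic reticulum, was at 8.27 to 15.9 TPM in KSL0608-Se-treated libraries, 3.22 to 13.7 TPM in aged/doxo libraries and 4.66 to 12.2 TPM in young control libraries. Hspa5, the chaperone BiP, was at 277 to 456 TPM in KSL0608-Se-treated libraries, 43.9 to 325 TPM in aged/doxo libraries and 143 to 402 TPM in young control libraries. Tapbpl, a tapasin relative that edits class I peptides, was at 8.02 to 9.74 TPM in KSL0608-Se-treated libraries, 2.01 to 8.91 TPM in aged/doxo libraries and 3.89 to 10.2 TPM in young control libraries.

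The immunoproteasome genes, which encode subunits and activators that cut proteins into class I peptides, had median log2 fold changes near 0. Over 5 genes the median was -0.04 in KSL0608-Se-treated against aged/doxo libraries, beside 0.30 for all genes. It was -0.08 in aged/doxo against young control libraries, beside -0.08 for all genes. In KSL0608-Se-treated against young control libraries it was -0.13, beside 0.23 for all genes. Psmb9 was at 13.8 to 15.98 TPM in KSL0608-Se-treated libraries, 8.86 to 27.8 TPM in aged/doxo libraries and 14.1 to 17.5 TPM in young control libraries, with its highest value in aged/doxo library 4, where H2-K1, B2m and class II also peaked. Psmb10 was at 18.9 to 31.5 TPM in KSL0608-Se-treated and 27.0 to 41.3 TPM in aged/doxo libraries, with a log2 fold change of -0.37 (exact permutation p = 0.143, limma adjusted p = 0.427).

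Of 16 other class II pathway genes listed, 14 were in the table and 8 were tested. H2-DMa and H2-DMb1, which encode the peptide exchange factor H2-DM, averaged 4.12 and 2.75 TPM and were highest in aged/doxo library 4, at 10.3 and 6.68 TPM. H2-DMa was at 4.50, 3.97, 4.72 and 3.79 TPM in KSL0608-Se-treated libraries and 3.05, 3.43, 2.78 and 3.70 TPM in young control libraries, which did not overlap (log2 fold change 0.31, exact permutation p = 0.0286, limma adjusted p = 0.734). Ctsl, a lysosomal protease, did not overlap in that comparison either, at 261.85 to 331.58 TPM in KSL0608-Se-treated and 163.93 to 257.02 TPM in young control libraries. They were 2 of 8, against 4.02% of all genes. H2-Ea was listed at 0 in all 12 libraries. The lysosomal proteases Ctsd, Ctsb and Ctsl were lowest in the libraries that stood apart, while Ctss and Lgmn were lowest in aged/doxo library 2 and next in aged/doxo library 3. Ctsd was at 148 to 177 TPM in KSL0608-Se-treated libraries, 42.5 to 156 TPM in aged/doxo libraries and 65.5 to 161 TPM in young control libraries. The median of the 8 was 0.41 in KSL0608-Se-treated against aged/doxo, -0.17 in aged/doxo against young control and 0.23 in KSL0608-Se-treated against young control libraries. The medians of all genes in those comparisons were 0.30, -0.08 and 0.23.

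The coactivators of the shared promoter module were measured at low levels, while subunits of RFX and NF-Y averaged from 1.91 TPM (Rfx5) to 11.5 TPM (Nfyb). Ciita, the class II coactivator, was at 0.04 to 0.25 TPM in KSL0608-Se-treated libraries, 0.07 to 0.25 TPM in aged/doxo libraries and 0.13 to 0.36 TPM in young control libraries. Nlrc5, the class I coactivator, was at 1.53 to 3.24 TPM in KSL0608-Se-treated libraries, 1.41 to 4.70 TPM in aged/doxo libraries and 1.25 to 1.98 TPM in young control libraries. Nfyb, a subunit of the Y box factor NF-Y, was at 12.8, 14.3, 14.7 and 14.3 TPM in KSL0608-Se-treated libraries, at 12.3, 7.92, 11.2 and 10.1 TPM in aged/doxo libraries, and at 7.29, 12.2, 9.30 and 11.7 TPM in young control libraries. KSL0608-Se-treated libraries did not overlap either other group, and Nfyb was the 1 of 12 tested regulators of which this held in each comparison, against 3.13% and 4.02% of all genes. The log2 fold change was 0.42 against aged/doxo (exact permutation p = 0.0286, limma adjusted p = 0.427) and 0.46 against young control (exact permutation p = 0.0286, limma adjusted p = 0.734). Rfx5, a subunit of the X box factor RFX, was at 1.80 to 3.53 TPM in KSL0608-Se-treated and 0.67 to 2.18 TPM in young control libraries (log2 fold change 0.57, exact permutation p = 0.0857, limma adjusted p = 0.734). These were the 2 of 12 tested regulators with an unadjusted p under 0.05 in that comparison, in which 3.4% of all genes had one. Their median was 0.15 beside 0.23 for all genes.

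Interferon gamma, the main inducer of both classes, was itself near the floor: Ifng was listed at 0 in 6 libraries and reached at most 0.53 TPM. Of 8 genes of its signalling path 6 were tested, and all 6 were above 0 in KSL0608-Se-treated against aged/doxo libraries, with a median of 0.35 and 0 at an unadjusted p under 0.05. Of all genes 81% were above 0 in that comparison, with a median of 0.30, so these values lie near the background. Jak1, its receptor kinase, was at 9.74 to 21.5 TPM in KSL0608-Se-treated and 3.72 to 17.6 TPM in aged/doxo libraries. The 5 co-stimulation genes Cd80, Cd86, Cd40, Cd274 and Icosl each averaged under 1 TPM and were not tested.

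Outside the 10 genes, those whose library pattern was most like class II were found by the mean Pearson's r with the 4 class II genes over 12 libraries, as a description with no test. Abi3 came first at 0.91, followed by Themis2 (0.90), Pld4 (0.89), Srgap2 (0.89), Fcer1g (0.89), Rexo5 (0.88), Cfp (0.88), Alkbh2 (0.88), Clec4a3 (0.86) and Cd44 (0.86). The class II genes had means of 0.95 to 0.98 with each other. Fcer1g, the common gamma chain of Fc receptors, stood at 36.4 TPM in aged/doxo library 4 and 8.92 TPM in aged/doxo library 3, against 24.2 TPM in young control library 2. Cfp, the complement factor properdin, stood at 23.6 TPM and 3.15 TPM in those aged/doxo libraries, against 14.0 TPM in young control library 2. For class I the same measure was lower. Over the 12 libraries the mean r of each class I chain with the other 3 lay between -0.08 and 0.21, with H2-Q10 and the libraries that stood apart included; without those libraries H2-K1, H2-D1 and B2m had r of 0.68 to 0.92 with each other, and H2-Q10 -0.64 to -0.21 with them. Over the 12 libraries the genes most like them included Psmb9 (0.52), Irf7 (0.51), Fcgr1 (0.51) and Rexo5 (0.50).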

How the data were processed

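RNA-seq of mouse liver was deposited as 1 table of gene-level TPM with 2 decimals, made by the authors, with library totals of about 1000000. Fastp, HISAT and RSEM are named in the submitters' processing notes, without versions, order or roles. The sources used here do not give the genome build or annotation. TPM keeps no depth, and its fixed total lets abundant genes move the rest.

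Libraries were grouped by their titles. Values were analysed as log2(TPM + 1) in 10883 genes with a mean of at least 1 TPM; fold changes on this scale understate low genes. A model with group alone was fitted by limma 3.58.1 (R 4.3.3) to all 12 libraries with an intensity trend, two-sided, with Benjamini-Hochberg adjustment over all genes (0.05). The procedure was tested on simulated data. Single genes had exact permutation tests, and correlations 100000 resamples in Python 3.11.15 with scipy 1.17.1; the smallest p these can give is 1e-05. Cell type and pathway lists are described by counts and medians, with no set test.

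The 10 genes are all named. From each list up to 4 genes of smallest p in a comparison, genes that check a label and genes that moved with a result are named, and the 10 and 5 genes most like class II and class I. Some genes that this rule names are not reported here. The genes and lists were chosen with earlier results of these data known. Gene positions are those of GENCODE M21 (GRCm38), matched by gene identifier. Recorded gene lengths equalled an M21 transcript for 9 of the 10 genes, all but H2-D1. Figures were drawn with matplotlib 3.10.9.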

Additional observations from a re-analysis of the deposited data

Results flagged for a closer look

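In 51 groups of 4 values tested for a library far from the others, 7 stood out, and chance gives about 1 in 20. The groups include H2-Q1 and sums that contain it. H2-Q1 was singled out after its values were seen, so its flags cannot be set against that rate. H2-Q1 was at 837.23 TPM in aged/doxo library 2, against 1.81 to 41.97 TPM in the other aged/doxo libraries. It was at 576.94 TPM in young control library 1, against 1.60 to 3.05 TPM in the other young control libraries. In that young control library H2-Q10 was low, at 714.79 TPM, against 1607 to 1751 TPM in the other 3. Tap2 was low in KSL0608-Se-treated library 1, at 7.61 TPM, against 8.85 to 9.01 TPM in the other 3. KSL0608-Se-treated library 3 was high for H2-Aa, at 33.71 TPM against 23.4 to 24.98 TPM in the others of its group, and for the summed class II chains, at 105.98 TPM against 70.1 to 72.2 TPM. H2-Ab1 was high in young control library 2, at 57.9 TPM, against 25.4 to 30.4 TPM in the other 3. The sum and H2-Aa share their values and are not separate observations.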

How the results depend on the processing

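In all 24 alternatives of each comparison, 0 of the 10 genes passed limma's adjusted p of 0.05. Of 240 values a comparison, an unadjusted p under 0.05 was seen in 5 for KSL0608-Se-treated against aged/doxo, 7 for aged/doxo against young control and 0 for KSL0608-Se-treated against young control; the smallest was 0.0070, for H2-Aa with array weights (adjusted p = 0.171). Over all genes, calls ranged from 0 to 77, 0 to 74 and 1 to 29 in those comparisons, highest with array weights. With these weights the class II median was 0.63 for KSL0608-Se-treated against aged/doxo and -0.79 for aged/doxo against young control, and signs turned for KSL0608-Se-treated against aged/doxo at H2-K1 (0.19), B2m (0.045), H2-Aa (0.70), H2-Ab1 (0.53) and H2-Eb1 (0.62), and for aged/doxo against young control at H2-K1 (-0.33), H2-Q10 (0.078), B2m (-0.18) and Tap1 (-0.12). No fold change of the 10 genes passed, so these signs were not settled, and the cause was not tested.

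Median-of-ratios scaling gave -0.36 for the class I median of KSL0608-Se-treated against aged/doxo, with H2-D1 -0.14, Tap1 -0.13, Tap2 -0.17 and Cd74 -0.37; for aged/doxo against young control H2-D1 was 0.023 and Tap2 0.066, and for KSL0608-Se-treated against young control H2-D1 was -0.12, Tap1 -0.043 and Tap2 -0.11. It set r at -0.46 for H2-Q10 with Tap2 and -0.038 for Tap1 with Tap2, passed 28 pairs, and brought the KSL0608-Se-treated class I sum to 3081 TPM. Quantile normalization gave Tap1 -0.11, Tap2 -0.15 and Cd74 -0.27 for KSL0608-Se-treated against aged/doxo, Tap2 0.053 for aged/doxo against young control, and Tap1 -0.0356 and Tap2 -0.10 for KSL0608-Se-treated against young control. A total without mitochondrial and the 50 most abundant genes gave Tap2 -0.020 and Cd74 -0.20, then Tap2 0.00728, then H2-D1 -0.0095 and Tap2 -0.013 in those comparisons, with a KSL0608-Se-treated class I sum of 3327 TPM. The length slope as a covariate gave values that were H2-D1 -0.11, Tap1 -0.28, Tap2 -0.042 and Cd74 -0.082, then H2-D1 0.044 and Tap2 0.047, then H2-D1 -0.069, H2-Q10 -0.050 and Tap1 -0.11.

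Without aged/doxo library 2 and young control library 1, they were H2-D1 -0.082, Tap1 -0.12 and Cd74 -0.15, then H2-K1 -0.022 and H2-D1 0.059, then H2-D1 -0.022; r was -0.21 for H2-D1 with H2-Q10 and -0.020 for H2-Q10 with Tap2, and 23 pairs passed. Leaving out 1 library at a time, the ranges that crossed 0 for KSL0608-Se-treated against aged/doxo were -0.26 to 0.42 for Cd74, -0.082 to 0.47 for H2-D1, -0.12 to 0.45 for Tap1, -0.39 to 0.33 for H2-Aa, -0.42 to 0.20 for H2-Ab1 and -0.52 to 0.19 for H2-Eb1. For aged/doxo against young control they were -0.25 to 0.33 for Tap1, -0.075 to 0.21 for H2-K1, -0.30 to 0.25 for H2-D1, -0.66 to 0.31 for H2-Q10, -0.16 to 0.11 for Tap2, -0.67 to 0.044 for H2-Aa, -0.48 to 0.14 for H2-Ab1, -0.49 to 0.21 for H2-Eb1 and -0.63 to 0.045 for Cd74. For KSL0608-Se-treated against young control they were -0.022 to 0.30 for H2-D1 and -0.34 to 0.015 for Cd74, while H2-K1 stayed below 0 in all 24 alternatives (-0.44 to -0.06).

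With the replicate number as a block, 0 of the 10 genes passed in any comparison. Of 12 pairs of same-numbered libraries, 2 had deviations correlated above 0.1 (r -0.58 to 0.39). Of 36 pairs with different numbers, also between groups, 14 did (r -0.43 to 0.58). The numbers were therefore not read as pairing. Depth is unknown and limits the low genes most.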
